A study of Mus musculus with 29 samples.

Results

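The 10 genes examined here govern glucose entry and glycolysis, and they were followed across pressure-overloaded and unstressed mouse hearts. They are the glucose transporters Slc2a4 and Slc2a1, the hexokinases Hk2 and Hk1, the phosphofructokinase subunits Pfkm and Pfkp, the bifunctional enzymes Pfkfb2 and Pfkfb1, and the lactate dehydrogenase subunits Ldhb and Ldha. All 10 were found by symbol among the 23420 genes of the deposited counts, and all 10 passed the filter on low counts.

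The series crossed 4 genotypes on the C57BL/6J background with 2 conditions, in 29 libraries of polyadenylated RNA from ventricular apexes. The genotypes were a combined knockout, a germline knockout of PKCε, an ablation of PKCδ restricted to the heart after birth, and wild type. PKCδ and PKCε, encoded by Prkcd and Prkce, are protein kinase C isoforms that need no calcium. Hearts came from mice 4 weeks after TAC (transverse aortic constriction, an operation that narrows the aorta and so raises the pressure against which the left ventricle pumps) or from unstressed mice. The TAC arm held 4 combined, 4 PKCε, 3 PKCδ and 4 wild-type libraries, and the unstressed arm held 4, 3, 3 and 4. All mice were labelled 12 weeks old. The 6 hearts labelled female were all in the TAC arm (3 combined, 2 PKCδ and 1 wild type), and the other 23 were labelled male. The promoter that drove the PKCδ deletion is not given in the sources used here, and no sham operation is named, so the operation and the pressure load cannot be told apart. The labels do not state that every library is a separate animal, so p-values reflect variation among libraries, part of which may be technical.

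Glucose enters the cardiomyocyte through GLUT4 (Slc2a4), which insulin and contraction move to the surface, and through GLUT1 (Slc2a1), which sits there at rest. Hexokinase traps glucose as glucose 6-phosphate, phosphofructokinase commits it to glycolysis, and lactate dehydrogenase interconverts pyruvate and lactate. The adult heart burns mostly fatty acids and carries the muscle forms Slc2a4, Hk2 and Pfkm and the heart form Ldhb. By contrast, Slc2a1, Hk1, Pfkp and Ldha are the forms of many other tissues and, for Slc2a1, Hk1 and Ldha, of the fetal heart. Pfkfb1 and Pfkfb2 make and break fructose 2,6-bisphosphate, the main activator of phosphofructokinase; Pfkfb2 is the heart form and Pfkfb1 the liver and skeletal muscle form, so that pair is no adult and fetal pair. The hypertrophied heart is known for taking up and using more glucose.

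The promoters of the forms shared with other tissues are printed because those genes were called higher after TAC in the mean of the genotypes. No single genotype called all of them. The promoter of Hk2, an adult form with no called change, is printed beside them. Sequences are RefSeq's 250 bases before the start site, 5′ to 3′ along the gene, in GRCm38.p6. Capitals mark ACGTG and GCGTG, the core of hypoxia response elements, on either strand, where the other strand reads CACGT and CACGC; each CACGTG (the E-box bound by MYC and by carbohydrate response factors) holds ACGTG on both strands.
Slc2a1, chr4:119108495-119108744, plus strand: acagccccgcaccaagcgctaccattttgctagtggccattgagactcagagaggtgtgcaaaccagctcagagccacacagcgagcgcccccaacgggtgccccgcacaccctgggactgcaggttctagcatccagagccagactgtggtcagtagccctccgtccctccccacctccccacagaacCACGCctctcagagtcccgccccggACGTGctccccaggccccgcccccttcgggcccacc
Hk1, second of 2 start sites, chr10:62340422-62340671, minus strand: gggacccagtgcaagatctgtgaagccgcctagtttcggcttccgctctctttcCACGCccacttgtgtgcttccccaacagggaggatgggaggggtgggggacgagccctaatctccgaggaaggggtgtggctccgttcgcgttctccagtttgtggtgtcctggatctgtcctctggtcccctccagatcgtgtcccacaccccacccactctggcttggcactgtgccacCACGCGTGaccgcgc
Pfkp, chr13:6648772-6649021, minus strand: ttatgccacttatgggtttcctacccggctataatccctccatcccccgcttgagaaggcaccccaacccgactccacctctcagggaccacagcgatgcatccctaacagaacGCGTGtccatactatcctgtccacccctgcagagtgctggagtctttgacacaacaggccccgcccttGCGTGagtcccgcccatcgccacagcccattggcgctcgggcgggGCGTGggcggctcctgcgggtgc
Ldha, first of 2 start sites, chr7:46845554-46845803, plus strand: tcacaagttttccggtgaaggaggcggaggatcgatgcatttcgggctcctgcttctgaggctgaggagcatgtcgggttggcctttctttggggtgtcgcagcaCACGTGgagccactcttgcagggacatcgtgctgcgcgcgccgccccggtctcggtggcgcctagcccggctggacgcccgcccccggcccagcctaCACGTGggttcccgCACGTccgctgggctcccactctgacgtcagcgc
Hk2, chr6:82774455-82774704, minus strand: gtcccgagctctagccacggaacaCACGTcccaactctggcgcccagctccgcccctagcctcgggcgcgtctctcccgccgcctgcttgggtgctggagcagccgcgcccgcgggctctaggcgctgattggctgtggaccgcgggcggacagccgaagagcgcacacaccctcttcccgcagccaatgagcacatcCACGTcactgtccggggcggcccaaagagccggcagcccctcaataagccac
Ldha and Pfkp each held 3 separate capitalised stretches, those of Ldha including 2 copies of CACGTG. Slc2a1, the second start of Hk1 and Hk2 each held 2, and the first start of Hk1 held 0. Of the promoters not printed, the second start of Ldha held 1 and Ldhb held 1. The 4 starts of Pfkm held 1, 2, 1 and 0, with 1 CACGTG at the first, and the 3 starts of Pfkfb2 held 1, 3 and 1, with 1 CACGTG at the second. The 4 starts of Pfkfb1 held 0, 1, 0 and 0. Among the members searched, adult and shared forms thus both held such stretches. Slc2a4 had no promoter entry in the source used and was not searched. Of 32851 mouse promoters of the same length, 38.6% held ACGTG or GCGTG and 6.02% held CACGTG. A match of this kind is a description of the letters, and the counts do not separate start sites.

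Before the members, the libraries were checked against their labels. Prkce read 7.26 to 10.8 CPM (counts scaled by TMM-adjusted library size to the usual common total) in PKCε-knockout TAC hearts and 6.59 to 9.19 CPM in the unstressed PKCε-knockout and combined hearts. The combined TAC libraries gave 9.71, 31.5, 8.21 and 10.97 CPM, so the library labelled combined TAC replicate 2 went against its label, while wild-type TAC hearts gave 40.4, 24.0, 33.3 and 42.9 CPM, with replicate 2 the lowest. Myh2, a skeletal muscle myosin gene chosen after its values were seen, read 7.66, 0.152, 6.27 and 6.51 CPM in combined TAC hearts and 0.0671, 10.2, 0.259 and 0.279 CPM in wild-type TAC hearts, so in both groups replicate 2 stood apart from the other 3 and near the level of the other group. In unstressed combined hearts, however, Myh2 read 0 to 0.167 CPM, so low Myh2 alone does not go against that label. The Prkce of wild-type TAC replicate 2 stayed above that of every PKCε-knockout library. The label of combined TAC replicate 2 is in doubt by its Prkce, and that of wild-type TAC replicate 2 is in doubt less clearly. These 2 are called the discordant libraries. They were kept under their labels, and they enter the TAC tests of both genotypes, each interaction and each comparison with wild type after TAC. Without them 0 of the 33 member results called with them were lost. In wild-type hearts the TAC changes in log2 were then -0.47 for Slc2a4, 0.48 for Hk1, -0.24 for Pfkm, 0.97 for Pfkp and -2.37 for Pfkfb1 (edgeR adjusted p at most 0.00377). Prkcd did not pass the test between PKCδ-ablation and wild-type hearts, with a log2 change of -0.29 ± 0.13 after TAC (18.9 ± 1.66 CPM, n = 3, and 23.1 ± 3.51 CPM, n = 4, SD, edgeR adjusted p = 0.853) and 0.21 ± 0.13 unstressed (adjusted p = 0.4), and the labels do not say which exons were removed. Combined unstressed replicate 1 also stood apart in several members. Y-linked transcripts summed to under 1 CPM in 10 of the 23 libraries labelled male and to at least 1 CPM in 4 of the 6 labelled female, so the sex label was left out of the model. Xist, made from the inactive X chromosome and also chosen after its values were seen, read 42.4 to 119 CPM in the 4 wild-type TAC libraries and 0.361, 142.5, 181 and 1.27 CPM in the 4 unstressed ones. In PKCδ-ablation hearts it read 43.0 to 62.9 CPM after TAC and 135 to 153.5 CPM unstressed, without overlap. It overlapped in PKCε-knockout hearts (7.65 to 119 and 1.47 to 168 CPM) and combined hearts (26.1 to 162 and 2.70 to 130 CPM). Libraries held between 10523709 and 17314739 reads counted to a gene. The 10 cardiomyocyte markers summed to 95210 to 114500 CPM in TAC hearts and 99450 to 116800 CPM in unstressed hearts. The 8 fibroblast markers, none of them at 0, summed to 1565 to 3639 CPM after TAC and 835 to 1331 CPM unstressed, and in the mean over genotypes 7 of the 8 were higher and 1 lower. Atrial markers, which include the stress peptide gene Nppa, summed to 478 to 7157 CPM after TAC and 56.6 to 163 CPM unstressed. The part of these cells in the results was not tested, and in bulk RNA fewer cells of a type and less RNA per cell cannot be told apart.

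Per kilobase of the principal transcript, which lets genes be compared, Ldhb was the most abundant member, with a median over the 29 libraries of 1237 CPM per kb. Pfkm (398) and Ldha (308) followed, then Slc2a4 (209), Hk2 (113) and Hk1 (102), all in CPM per kb. Pfkp (27.0), Pfkfb2 (23.2), Slc2a1 (8.86) and Pfkfb1 (4.93 CPM per kb) were the scarce members. Ranges over libraries overlapped for some neighbours in this order: Pfkm spanned 344 to 481 and Ldha 259 to 591 CPM per kb, and Hk2 spanned 98.1 to 134 and Hk1 79.7 to 168 CPM per kb. Ldhb, at 962 CPM per kb or more in every library, lay above all the others. From its lowest to its highest library a gene moved 27.6-fold for Pfkfb1, 4.51-fold for Pfkp and 3.24-fold for Slc2a1, against 1.36-fold for Hk2.

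**Figure D1:**
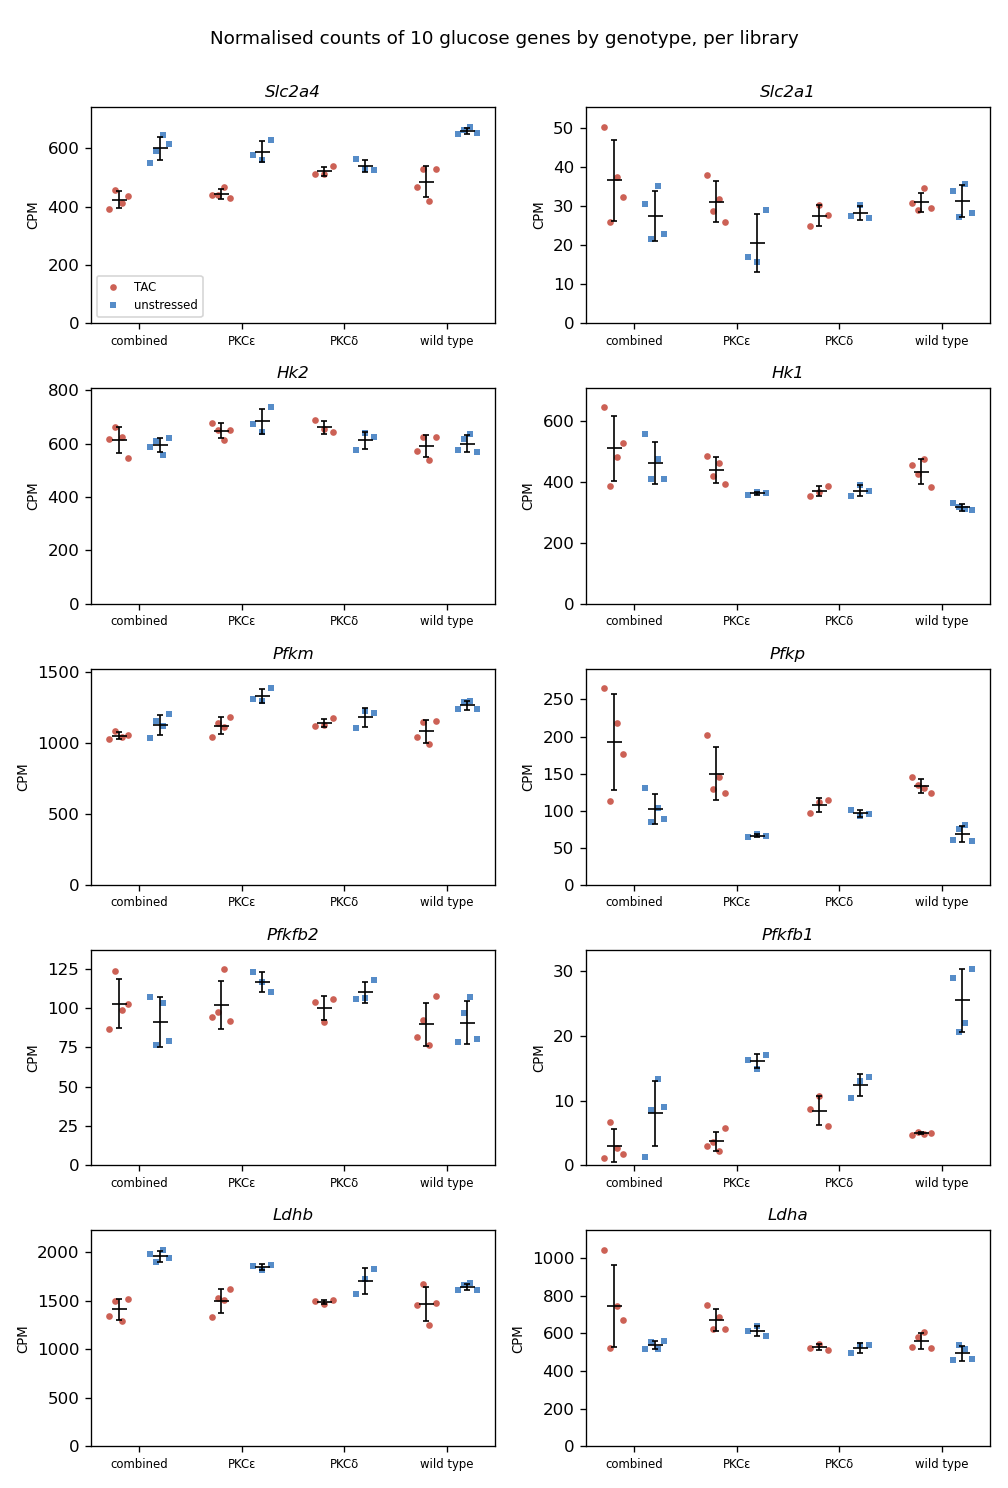
Normalised counts (CPM, linear axis from 0) of the 10 genes in each library; red circles are TAC and blue squares unstressed hearts, bars are the group mean and SD, and genotypes run from combined to wild type. Pfkfb1 lies between 4.76 and 5.23 CPM in wild-type TAC hearts and between 20.6 and 30.2 CPM in unstressed ones, whereas Hk2 shows no such separation.

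The first comparison was TAC against unstressed hearts within each genotype. Slc2a4 and Pfkfb1 fell and Pfkp rose in combined, PKCε-knockout and wild-type hearts, while in PKCδ-ablation hearts no member passed the test. A gene was called when edgeR's quasi-likelihood test gave a Benjamini-Hochberg adjusted p below 0.05 over 13765 genes. Called were 5 of 10 members in combined hearts (2 higher and 3 lower), where 43.8% of all genes were called, 22% higher and 21.8% lower. In PKCε-knockout hearts 6 were called (2 higher and 4 lower), where 28.9% of all genes were called, 14.5% higher and 14.3% lower. In PKCδ-ablation hearts 0 were called, against 26.9% of all genes. In wild-type hearts 5 were called (2 higher and 3 lower), where 35.7% of all genes were called, 17.8% higher and 17.9% lower. In the mean of the 4 genotypes 8 of 10 were called, 4 in each direction, against 56.9% of all genes (28.1% higher and 28.9% lower). The members' median log2 fold change there was -0.014, and that of all genes -0.0036. TAC and unstressed libraries did not overlap for 2 members in combined hearts (33% of all genes), 6 in PKCε-knockout hearts (35.4%), 3 in PKCδ-ablation hearts (48%) and 5 in wild-type hearts (35.2%). With so many genes moving, these counts alone do not set the members apart. The summed fibroblast markers moved in the same hearts. Their medians were 2688 CPM after TAC and 1132 CPM unstressed in combined, and 2457 and 1047 CPM in PKCε-knockout hearts. They were 1601 and 1049 CPM in PKCδ-ablation and 2232 and 997 CPM in wild-type hearts. Of the 8, 7 were called higher and 0 lower in combined hearts. In PKCε-knockout hearts 3 were higher and 1 lower, in PKCδ-ablation hearts 2 and 1, and in wild-type hearts 3 and 1. Macrophage and leukocyte markers moved unequally. Of the 7 measured, 0 were higher and 2 lower in combined hearts (summed 347 to 387 CPM after TAC and 390.5 to 415 CPM unstressed), and 7 were higher in wild-type hearts (411 to 570.5 CPM after TAC and 311 to 349 CPM unstressed). In PKCε-knockout and PKCδ-ablation hearts 3 of the 7 were higher in each. The part of these markers in the members' changes was not tested.

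Slc2a4 (chr11:69942286-69948216, minus strand, GRCm38) fell after TAC in 3 of the 4 genotypes. It had 389.9, 456, 413 and 437 CPM in combined TAC hearts, against 549, 590.1, 645 and 615 CPM in unstressed combined hearts. In PKCε-knockout hearts it read 439, 439, 467 and 429 CPM after TAC, against 578, 559.9 and 628 CPM unstressed. Neither genotype showed any overlap between TAC and unstressed libraries. Wild-type values were 467, 528, 419 and 530.3 CPM after TAC, against 651, 663, 675 and 651 CPM unstressed, again without overlap. PKCδ-ablation hearts gave 513, 512 and 539 CPM after TAC, against 562, 528 and 526 CPM unstressed, and these ranges overlapped. The log2 fold changes were -0.50 ± 0.07 (SE) in combined hearts (adjusted p = 7.86e-07), -0.41 ± 0.07 in PKCε-knockout hearts (adjusted p = 0.000117), -0.05 ± 0.08 in PKCδ-ablation hearts (adjusted p = 0.699) and -0.44 ± 0.07 in wild-type hearts (adjusted p = 1.14e-05, edgeR). These 3 calls held in every alternative run and without any one library.

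Slc2a1 (chr4:119108745-119137330, plus strand) was low in every group and moved less evenly. Group means ran from 36.5 ± 10.3 CPM (SD, n = 4) in combined TAC hearts, the highest, to 20.4 ± 7.33 CPM (n = 3) in unstressed PKCε-knockout hearts, the lowest, and every group overlapped its neighbour in that order. PKCε-knockout hearts had 37.9, 28.6, 31.8 and 25.7 CPM after TAC, against 16.9, 15.5 and 28.9 CPM unstressed. This was the only genotype in which Slc2a1 was called, at a log2 fold change of 0.60 ± 0.21 (edgeR adjusted p = 0.0379), although unstressed replicate 3 lay within the TAC range. The call was lost without any one of 4 of its libraries: PKCε TAC replicate 1 (0.48, adjusted p = 0.122) or 3 (0.58, adjusted p = 0.0643), or unstressed replicate 1 (0.48, adjusted p = 0.166) or 2 (0.43, adjusted p = 0.187). It was also lost when only the groups compared were fitted (adjusted p = 0.099) and with no filter on low counts (adjusted p = 0.0546). In the mean of the genotypes the log2 change was 0.24 ± 0.10 (adjusted p = 0.0444), and 16 of 29 fits with 1 library left out lost that call, their adjusted p running up to 0.0892, as did the fits with the sex label as a term (adjusted p = 0.134), with libraries labelled male (adjusted p = 0.143) and with no filter (adjusted p = 0.0524).

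Hk2 (chr6:82725025-82774454, minus strand) showed no called change anywhere. It averaged 614 ± 49.8 CPM in combined TAC hearts and 595 ± 27.4 CPM in unstressed ones (SD, n = 4 each), and 591 ± 41.9 CPM after TAC against 600.0 ± 32.6 CPM unstressed in wild type (n = 4 each). Its mean TAC effect over genotypes was a log2 change of 0.01 ± 0.03 (edgeR adjusted p = 0.758). In PKCδ-ablation hearts the TAC libraries (643 to 689 CPM) lay above the unstressed ones (578 to 639 CPM), without passing the test (adjusted p = 0.304). There 48% of all genes tested had no overlap between the groups of 3.

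Hk1 (chr10:62268855-62379920, minus strand) passed the test after TAC in wild-type hearts, where it rose, and missed it in the other genotypes. PKCε-knockout hearts had 485, 419, 462 and 392.4 CPM after TAC, against 359, 367 and 364 CPM unstressed. Wild-type hearts had 455, 427, 475 and 383 CPM after TAC, against 331, 319, 311 and 307 CPM unstressed. In both genotypes the TAC libraries lay above the unstressed ones, and the log2 fold change was 0.28 ± 0.11 in PKCε-knockout hearts (edgeR adjusted p = 0.0711) and 0.46 ± 0.11 in wild type (adjusted p = 0.00131). Combined hearts had 646, 389, 484 and 529 CPM after TAC, against 558, 410.1, 475 and 410.4 CPM unstressed, and overlapped. The label-discordant TAC replicate 2 was the lowest of that group and unstressed replicate 1 the highest of its group. The combined log2 change was 0.14 ± 0.11 (adjusted p = 0.283), became 0.25 (adjusted p = 0.037) without both Prkce-discordant libraries, and 0.36 (adjusted p = 0.00304) without unstressed replicate 1 as well. PKCδ-ablation hearts stayed level at 356, 366 and 388 CPM after TAC, against 354, 391 and 371 CPM unstressed.

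Pfkm (chr15:98092589-98132447, plus strand), more abundant per kb than Pfkp, fell in PKCε-knockout hearts to 0.843 times, and in wild-type hearts to 0.856 times, the unstressed level. PKCε-knockout hearts had 1041, 1140, 1115 and 1185 CPM after TAC, against 1308, 1295 and 1385 CPM unstressed. Wild-type hearts had 1039, 1146, 990 and 1155 CPM after TAC, against 1238, 1286, 1296 and 1237 CPM unstressed. Neither genotype overlapped, and the log2 fold changes were -0.25 ± 0.06 in PKCε-knockout hearts (edgeR adjusted p = 0.00474) and -0.22 ± 0.06 in wild type (adjusted p = 0.00439). Combined hearts (1050 ± 23.5 CPM after TAC and 1128 ± 70.9 CPM unstressed, SD, n = 4 each) and PKCδ-ablation hearts (1141 ± 28.1 and 1181 ± 66.8 CPM, n = 3 each) were not called. Of its exonic bases, 10.2% overlap a gene model on the same strand, Gm26513.

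Pfkp (chr13:6579874-6649060, minus strand) rose most among the members. PKCε-knockout hearts had 202, 129, 145 and 124 CPM after TAC, against 64.2, 67.9 and 65.3 CPM unstressed. Wild-type hearts had 145, 134, 129.9 and 123 CPM after TAC, against 60.2, 75.1, 80.2 and 58.8 CPM unstressed. All TAC libraries of both genotypes exceeded all unstressed ones, with log2 fold changes of 1.19 ± 0.21 in PKCε-knockout hearts (edgeR adjusted p = 0.00024) and 0.96 ± 0.19 in wild type (adjusted p = 0.000486). Combined hearts had 265, 113, 218 and 176 CPM after TAC, against 130.1, 85.2, 103 and 88.6 CPM unstressed. Here the label-discordant TAC replicate 2 lay inside the unstressed range. The combined change was 0.92 ± 0.19 (adjusted p = 0.000412), and 1.11 (adjusted p = 1.24e-05) without both discordant libraries. PKCδ-ablation hearts had 96.7, 112 and 115 CPM after TAC, against 101, 92.7 and 95.0 CPM unstressed, a log2 change of 0.16 ± 0.22 (adjusted p = 0.625).

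Pfkfb2 (chr1:130689043-130729253, minus strand), the heart form, was not called in any comparison, and its mean TAC effect was a log2 change of -0.04 ± 0.07 (edgeR adjusted p = 0.614). Group means ran from 117 ± 6.29 CPM in unstressed PKCε-knockout hearts (SD, n = 3) to 89.6 ± 13.8 CPM in wild-type TAC hearts (n = 4), each overlapping its neighbour. Of its exonic bases, 17.4% overlap the gene model Gm29427 on the same strand, so the counting may have left reads there out.

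Pfkfb1 (chrX:150587445-150643878, plus strand) was the member with the largest change. Its counts were low, 16 to 452 per library. Of the tissues in which it is known, skeletal muscle gave 10 markers whose sum moved differently by genotype. They summed to 1679 to 2037 CPM after TAC and 2322 to 2470 CPM unstressed in combined hearts, lower and without overlap, and to 1990 to 2130 CPM after TAC and 1485 to 1925 CPM unstressed in PKCδ-ablation hearts, higher and without overlap. In PKCε-knockout hearts (1931 to 2373 and 1711 to 1974 CPM) and wild-type hearts (1718 to 2642 and 1631 to 1967 CPM) they overlapped. Of the 10, Myh2 read at most 28.8 CPM in any library, so other markers carried the sum. The list also holds Ckm, a creatine kinase of muscle, and the sum is not a measure of skeletal muscle alone. A sum weighs abundant markers most, and calls on single markers did not follow it in combined and PKCδ-ablation hearts. Of the 8 tested, 2 were called higher and 2 lower in combined hearts, and 0 and 1 in PKCδ-ablation hearts. In PKCε-knockout hearts 0 were higher and 1 lower, and in wild-type hearts 3 and 1. The 4 liver markers summed to 0.383 to 2.8 CPM after TAC and 0.173 to 1.17 CPM unstressed, with Alb at 0. The part of these markers was not tested. PKCε-knockout hearts had 3.05, 3.66, 2.28 and 5.82 CPM after TAC, against 16.2, 14.9 and 17.0 CPM unstressed. Wild-type hearts had 4.76, 5.23, 4.92 and 5.01 CPM after TAC, against 28.8, 20.6, 22.0 and 30.2 CPM unstressed. In unstressed wild-type hearts Pfkfb1 was higher in replicates 1 and 4, which had little Xist, than in replicates 2 and 3, which had much. Pfkp was lower in replicates 1 and 4. In unstressed combined hearts replicate 1 (Xist 2.70 CPM) had the lowest Pfkfb1 (1.32 CPM) and the highest Pfkp (130.1 CPM). Replicate 3 there (Xist 42.2 CPM, against 130 and 128 CPM in replicates 2 and 4) had the highest Pfkfb1 (13.4 CPM). In unstressed PKCε-knockout hearts replicate 2 (Xist 1.47 CPM) differed little from replicates 1 and 3. Its Pfkfb1 was 14.9 CPM, against 16.2 and 17.0 CPM, and its Pfkp 67.9 CPM, against 64.2 and 65.3 CPM. All unstressed hearts are labelled male, so the fits with the sex label cannot address these differences by Xist, and the part of sex was not tested. In PKCε-knockout and in wild-type hearts no TAC library reached the lowest unstressed one of its genotype for Pfkfb1. The TAC level was 0.228 times the unstressed level in PKCε-knockout hearts and 0.196 times in wild type. These were log2 changes of -2.13 ± 0.46 (edgeR adjusted p = 0.00154) and -2.35 ± 0.42 (adjusted p = 0.000163). PKCδ-ablation hearts had 8.62, 10.7 and 6.08 CPM after TAC, against 10.4, 13.1 and 13.6 CPM unstressed, a log2 change of -0.55 ± 0.47 (adjusted p = 0.421). Combined hearts had 1.09, 6.69, 2.70 and 1.74 CPM after TAC, against 1.32, 8.57, 13.4 and 8.99 CPM unstressed. The lowest unstressed library was replicate 1, and the highest TAC library was the label-discordant replicate 2. The combined change of -1.42 ± 0.47 (adjusted p = 0.0175) was lost without combined unstressed replicate 3 (-1.08, adjusted p = 0.0824), TAC replicate 1 (-1.15, adjusted p = 0.0634) or TAC replicate 4 (-1.22, adjusted p = 0.0559). It was also lost with the sex label as a term (adjusted p = 0.0641), in libraries labelled male (adjusted p = 0.152) and with only the groups compared (adjusted p = 0.201). Without the 2 discordant libraries it was -2.08 (adjusted p = 0.0018), and without unstressed replicate 1 too it was -2.45 (adjusted p = 1.14e-06).

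Ldhb (chr6:142490249-142507957, minus strand), the heart subunit of lactate dehydrogenase, fell most in combined hearts. They had 1346, 1495, 1290 and 1518 CPM after TAC, against 1986, 1896, 2025 and 1939 CPM unstressed. PKCε-knockout hearts had 1330, 1534, 1506 and 1622 CPM after TAC, against 1865, 1816 and 1869 CPM unstressed. Both genotypes were fully separated, with log2 fold changes of -0.47 ± 0.07 in combined hearts (edgeR adjusted p = 5.3e-06) and -0.30 ± 0.08 in PKCε-knockout hearts (adjusted p = 0.00415). PKCδ-ablation hearts had 1496, 1463 and 1506 CPM after TAC, against 1566, 1726 and 1831 CPM unstressed, separated but not called (-0.20 ± 0.08, adjusted p = 0.0791). Wild-type hearts had 1454, 1678, 1254 and 1476 CPM after TAC, against 1614, 1660, 1682 and 1613 CPM unstressed (-0.16 ± 0.07, adjusted p = 0.0778). The wild-type overlap came from TAC replicate 2, whose Prkce was the lowest of its group, and without the 2 discordant libraries the wild-type change was -0.23 (adjusted p = 0.0141).

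Ldha (chr7:46842274-46855627, plus strand), the muscle and liver subunit, rose in combined hearts. They had 1043, 522, 743 and 671 CPM after TAC, against 518, 554, 518 and 558 CPM unstressed, with the discordant replicate 2 the only TAC library in the unstressed range. The log2 change was 0.47 ± 0.12 (edgeR adjusted p = 0.0018), and 0.61 (adjusted p = 1.35e-05) without both discordant libraries. In PKCε-knockout hearts Ldha averaged 671 ± 60.0 CPM after TAC (n = 4) and 613 ± 26.7 CPM unstressed (n = 3), in PKCδ-ablation hearts 526 ± 16.2 and 523 ± 25.8 CPM (n = 3 each), and in wild type 559 ± 41.0 and 495 ± 39.1 CPM (SD, n = 4 each). None of these 3 was called, with adjusted p from 0.25 to 0.972.

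**Figure D2:**
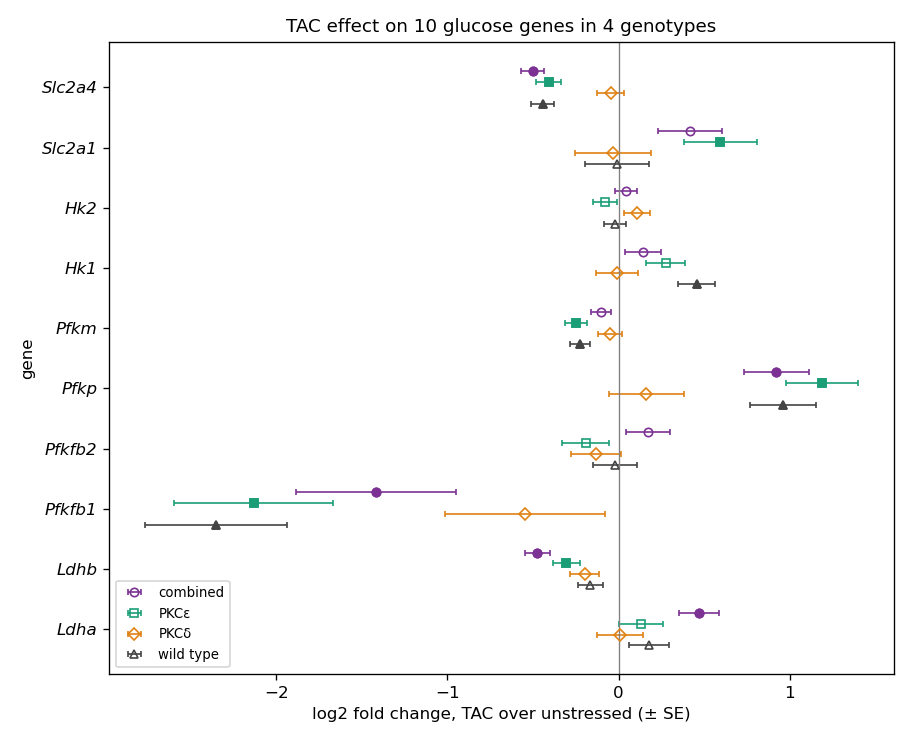
Log2 fold change of each gene, TAC over unstressed, in each genotype, with 1 SE either side; filled symbols have an edgeR adjusted p below 0.05 and open symbols do not. The orange diamonds of PKCδ-ablation hearts are all open, and for Slc2a4, Pfkp and Pfkfb1 they lie nearer to 0 (-0.05, 0.16 and -0.55) than those of the other genotypes.

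Whether the TAC effect itself differed from that in wild type was tested by interaction. In PKCδ-ablation hearts Slc2a4 was the 1 member called (against 1.27% of all genes), its TAC effect being 0.40 ± 0.10 higher on the log2 scale than in wild type (edgeR adjusted p = 0.0487). That call was marginal: 22 of 29 fits without 1 library lost it, with adjusted p up to 0.126, and so did the fits with the sex label as a term (adjusted p = 0.103), with libraries labelled male (adjusted p = 0.138), with no filter (adjusted p = 0.0519) and with a replicate block (adjusted p = 0.062). The difference lay mostly in the unstressed level. Slc2a4 in PKCδ-ablation hearts differed from wild type by -0.29 unstressed (edgeR adjusted p = 0.0175) and 0.10 after TAC (adjusted p = 0.897). Pfkp (-0.80 ± 0.29, adjusted p = 0.2), Pfkfb1 (1.81 ± 0.63, adjusted p = 0.178) and Hk1 (-0.46 ± 0.16, adjusted p = 0.169) did not pass, so a different response of PKCδ-ablation hearts was not shown for them. In the fit to only the 4 groups compared, all 3 passed (adjusted p = 0.0025, 0.00033 and 0.0112), and Pfkfb1 also did without the 2 discordant libraries and combined unstressed replicate 1 (1.83, adjusted p = 0.00721). In PKCε-knockout hearts 0 members were called (against 0.0363% of genes). In combined hearts Ldhb was the 1 called (against 25.1%), its fall being larger than in wild type by 0.31 ± 0.10 in size (log2 difference -0.31, adjusted p = 0.0265). The Ldhb call was lost without wild-type unstressed replicate 4, wild-type TAC replicate 2, or combined TAC replicate 1 or 3 (adjusted p from 0.0502 to 0.0755), and without the 2 discordant libraries and combined unstressed replicate 1 (-0.27, adjusted p = 0.0772). It also missed the threshold in libraries labelled male (-0.44, adjusted p = 0.057) and with only the groups compared (adjusted p = 0.0576). Here too the difference lay mostly in the unstressed level. Ldhb in combined hearts differed from wild type by 0.26 unstressed (edgeR adjusted p = 0.00871) and -0.05 after TAC (adjusted p = 0.702).

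Setting each adult form against the form shared with other tissues within a library removes the scaling between libraries. The log2 ratio of counts (0.5 added to each) moved toward the shared form after TAC in all 4 such pairs when averaged over genotypes, by permuting TAC labels within genotype (two-sided permutation test with 100000 resamples, adjusted over 5 pairs). Pfkm to Pfkp fell by 0.95 (adjusted p = 2.5e-05, from the smallest p the resamples can give), Slc2a4 to Slc2a1 fell by 0.60 (adjusted p = 3.33e-05), Ldhb to Ldha fell by 0.47 (adjusted p = 2.5e-05) and Hk2 to Hk1 fell by 0.20 (adjusted p = 0.0238). The Hk2 to Hk1 result missed the threshold in libraries labelled male (-0.17, adjusted p = 0.101) and without combined TAC replicate 1 (-0.17, adjusted p = 0.0535). The fifth pair, Pfkfb2 to Pfkfb1, rose by 1.56 (adjusted p = 0.000138).

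As plain ratios of counts, Ldhb to Ldha had a median of 1.999 in combined TAC hearts and 3.66 in unstressed combined hearts. The other genotypes gave 2.33 after TAC and 3.06 unstressed for PKCε knockout, 2.85 and 3.20 for PKCδ ablation, and 2.79 and 3.36 for wild type. TAC and unstressed libraries did not overlap for this pair in any genotype. Pfkm to Pfkp had medians of 5.38 and 12.2 in combined hearts, 8.26 and 20.4 in PKCε-knockout hearts, 10.3 and 12.8 in PKCδ-ablation hearts, and 8.07 and 18.8 in wild type, after TAC and unstressed in each genotype. For Slc2a4 to Slc2a1 they were 12.3 and 22.8, 15.0 and 34.0, 19.5 and 19.6, and 16.6 and 21.2 in the same order of genotypes, and for Hk2 to Hk1 they were 1.16 and 1.33, 1.48 and 1.88, 1.79 and 1.64, and 1.36 and 1.89. PKCδ-ablation libraries overlapped between TAC and unstressed hearts in every pair but Ldhb to Ldha. Combined libraries overlapped for Pfkm to Pfkp, Hk2 to Hk1 and Pfkfb2 to Pfkfb1. PKCε-knockout and wild-type libraries did not overlap in any pair. Within a genotype the two-sided exact permutation test cannot give a p below 0.0286 with 4 against 4 or 4 against 3 libraries, or below 0.1 with 3 against 3, and adjusted over 20 tests none passed (lowest adjusted p = 0.0635, exact permutation). Ratios over 1 here compare counts, which also depend on transcript length.

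**Figure D3:**
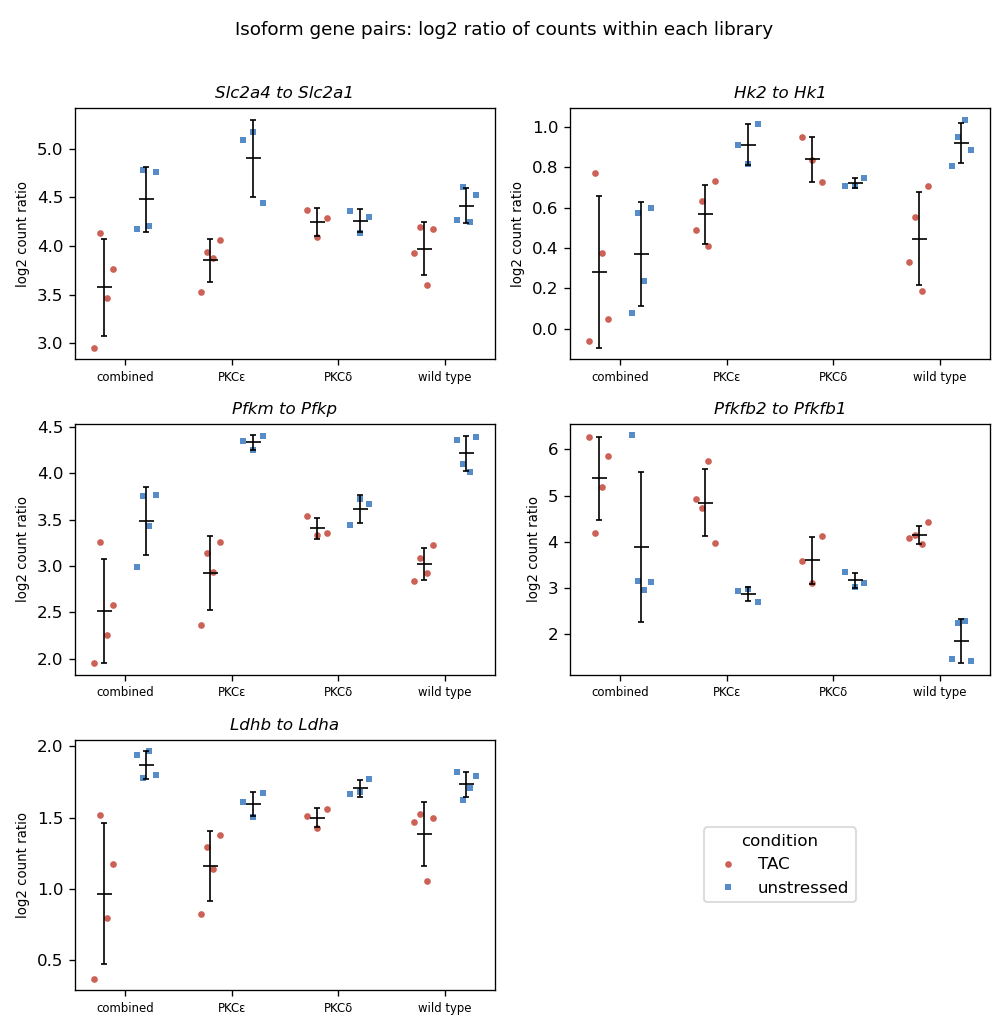
Log2 ratio of counts of each gene pair in every library, by genotype; red circles are TAC and blue squares unstressed hearts, with group mean and SD. The Pfkm to Pfkp ratio falls in combined, PKCε-knockout and wild-type hearts (differences of -0.97, -1.41 and -1.20), and that of PKCδ-ablation hearts differs by -0.21. TAC and unstressed libraries overlap for this pair in combined and PKCδ-ablation hearts.

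The second comparison set each ablation against wild type within a condition. In unstressed hearts the combined ablation stood apart from wild type with 5 of 10 members called (3 higher and 2 lower, against 29.2% of all genes, 15.3% higher and 13.9% lower), PKCε knockout with 0 (against 3% of genes) and PKCδ ablation with 1 (against 5.37%). Hk1 was higher in combined than in wild-type unstressed hearts, by a log2 fold change of 0.55 ± 0.11 (464 ± 70.1 and 317 ± 10.7 CPM, SD, n = 4 each, edgeR adjusted p = 0.000312). Ldhb was higher by 0.26 ± 0.07 (1962 ± 56.1 and 1642 ± 34.7 CPM, adjusted p = 0.00871), all 4 combined libraries lying above all 4 wild-type ones. Pfkfb1 was lower by a log2 change of -1.68 ± 0.40 (8.06 ± 4.99 and 25.4 ± 4.83 CPM, adjusted p = 0.00339; 0.0512 with only the groups compared). These 3 held without any one library. Markers of other cells also differed between these groups: 3 of 8 fibroblast, 4 of 8 endothelial and 2 of 4 smooth muscle markers were lower in combined hearts, and 4 of 7 macrophage and leukocyte markers were higher. The skeletal muscle list, whose sum is not a measure of skeletal muscle alone, summed to 2322 to 2470 CPM in combined and 1631 to 1967 CPM in wild-type unstressed hearts. Of its 8 markers tested, 1 was called higher. The part of these markers was not tested.

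Pfkp was higher (0.57 ± 0.19, edgeR adjusted p = 0.0279) and Pfkm lower (-0.16 ± 0.06, adjusted p = 0.0376) in combined unstressed hearts, but both calls rested on single libraries. Without combined unstressed replicate 1 the adjusted p was 0.122 for Pfkp (0.43) and 0.145 for Pfkm (-0.13). Pfkp was also lost without combined replicate 3 or wild-type replicate 1 or 4 (adjusted p from 0.0516 to 0.0897), and Pfkm without combined replicate 3 or wild-type replicate 2 or 3 (adjusted p from 0.0635 to 0.0822), with no filter on low counts (adjusted p = 0.0583), or without the 2 discordant libraries and combined unstressed replicate 1 together (-0.13, adjusted p = 0.12). In PKCδ-ablation hearts Slc2a4 was lower than in wild type by a log2 change of -0.29 ± 0.07 (539 ± 20.4 CPM, n = 3, and 660.1 ± 11.4 CPM, n = 4, SD, edgeR adjusted p = 0.0175). It was lost without PKCδ unstressed replicate 2 (adjusted p = 0.0577) or 3 (adjusted p = 0.0943). Pfkfb1 (-1.04 ± 0.43, adjusted p = 0.161) and Pfkp (0.49 ± 0.21, adjusted p = 0.172) did not pass in that comparison, nor did Pfkp after TAC (-0.31 ± 0.20, adjusted p = 0.895). Of the PKCε-knockout differences, the largest were Pfkfb1 (-0.67 ± 0.42, adjusted p = 0.463) and Slc2a1 (-0.59 ± 0.21, adjusted p = 0.146).

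After TAC, Ldha was the 1 member called in combined against wild-type hearts (against 6.76% of genes), higher by a log2 change of 0.41 ± 0.12 (745 ± 219 and 559 ± 41.0 CPM, SD, n = 4 each, edgeR adjusted p = 0.0337). It rested on combined TAC replicate 1, at 1043 CPM, without which the change was 0.21 (adjusted p = 0.233). Leaving out wild-type TAC replicate 1, 2 or 4 also ended the call (adjusted p from 0.0617 to 0.093), as did the sex label as a term (adjusted p = 0.103), libraries labelled male (adjusted p = 0.436) and only the groups compared (adjusted p = 0.264). Of the 4 combined TAC hearts, 3 were labelled female, and of the 4 wild-type TAC hearts, 1. Without the 2 discordant libraries it was 0.56 (adjusted p = 0.00361), and Pfkp was then called as well (0.71, adjusted p = 0.0227). PKCε-knockout and PKCδ-ablation hearts had 0 members called against wild type after TAC, where 0.0436% and 0% of all genes were called by edgeR. For PKCδ ablation 789 genes had an unadjusted p under 0.05, and DESeq2 called 1 gene. All these comparisons share the wild-type hearts of their condition, so their values are not independent of each other.

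**Figure D4:**
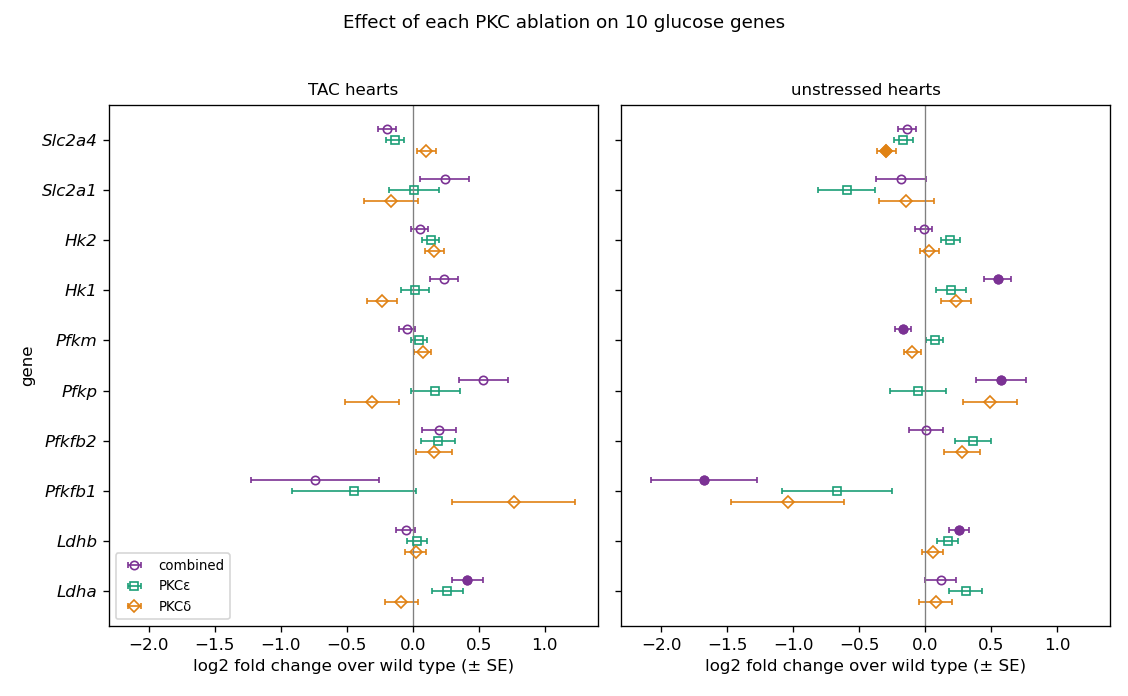
Log2 fold change of each genotype over wild type, with 1 SE either side, in TAC hearts (left) and unstressed hearts (right); filled symbols have an edgeR adjusted p below 0.05. Filled symbols are mostly those of the combined ablation in unstressed hearts (Hk1 0.55, Pfkp 0.57, Ldhb 0.26, Pfkm -0.16 and Pfkfb1 -1.68).

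Other genes of the pathway were described by 5 lists in the mean TAC effect over genotypes, where 28.1% of all genes were higher, 28.9% were lower and the median log2 change was -0.0036. Of 21 further glycolytic enzymes, 10 were higher and 4 lower, with a median log2 change of 0.12. The higher ones included the phosphoglycerate mutase of muscle Pgam2 (0.47 ± 0.04, edgeR adjusted p = 1.34e-11) and the liver-type phosphofructokinase Pfkl (0.43 ± 0.04, adjusted p = 2.09e-09). Among 18 genes of glucose uptake, 6 were higher and 6 lower (median 0.17). Akt2, the kinase through which insulin moves GLUT4, was lower (-0.43 ± 0.03, adjusted p = 4.07e-12), as was its substrate Tbc1d4, which holds GLUT4 inside the cell (-0.59 ± 0.05, adjusted p = 6.67e-11), whereas Rab10, a GTPase of GLUT4 vesicles in fat cells, was higher (0.37 ± 0.04, adjusted p = 2.54e-09). Among the 4 genotypes, Akt2 had log2 changes of -0.48, -0.39, -0.41 and -0.44 in combined, PKCε-knockout, PKCδ-ablation and wild-type hearts, and was called lower in each.

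Of 20 glycogen genes, 9 were higher and 7 lower (median 0.09). Ugp2, which makes UDP-glucose (1.14 ± 0.10, edgeR adjusted p = 1.19e-09), Ppp1r3c, which targets phosphatase to glycogen (0.73 ± 0.06, adjusted p = 2.61e-10), and the primer protein Gyg (0.37 ± 0.04, adjusted p = 4.23e-10) were higher. Ugp2 rose by a log2 change of 2.16 ± 0.20 in combined hearts (adjusted p = 1e-08) and 0.61 ± 0.19 in wild-type hearts (adjusted p = 0.0138). Of 19 genes of pyruvate and lactate handling, 7 were higher and 6 lower (median -0.06). The mitochondrial pyruvate carrier subunit Mpc2 was higher (0.40 ± 0.03, adjusted p = 3.01e-11). The monocarboxylate transporter Slc16a7 (-1.61 ± 0.15, adjusted p = 2.14e-10) and the pyruvate dehydrogenase phosphatase Pdp2 (-0.80 ± 0.07, adjusted p = 2.14e-10) were lower.

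Of 22 regulators of glycolysis genes, 3 were higher and 11 lower (median -0.17). Mef2a, of a transcription factor family that binds the Slc2a4 promoter (-0.76 ± 0.04, edgeR adjusted p = 1.38e-15), the oestrogen-related receptor Esrrg (-0.41 ± 0.04, adjusted p = 1.33e-10) and the AMP-activated kinase subunit Prkag1 (-0.34 ± 0.03, adjusted p = 1.42e-09) were lower. All 3 were also called lower within PKCδ-ablation hearts (-0.78, -0.51 and -0.46), where no member was called.

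By pattern over the 29 libraries, the genes most like each member were taken from the Pearson r of log2 CPM. Slc2a4 was most like Kcnip2 (0.92) and Kcnj3 (0.902), genes of cardiac potassium channels. Hk1 was most like Cttn (0.962), which binds cortical actin, and Gpx3 (0.938), and Pfkp most like Kif1a (0.941) and 2200002D01Rik (0.94). Pfkfb1 was most like Phkg1 (0.906), a phosphorylase kinase subunit, and Kcnv2 (0.899). Ldhb was most like Atp5g1 (0.926) and Slc25a11 (0.902), of the mitochondrial inner membrane, and Pfkm most like Sdhc (0.92) and Hdlbp (0.888). Ldha was most like Pdk1 (0.861) and Tpi1 (0.857), and Slc2a1 most like Etv5 (0.841) and Lrrc10 (0.8). Lower values were reached by Pfkfb2, with Mgea5 (0.713) and Ankrd33b (0.661), and by Hk2, with Pecr (0.661) and Kcna7 (0.657), the members that varied least with TAC. Among members, Pfkp and Pfkfb1 (-0.902) and Hk1 and Pfkfb1 (-0.89) varied in opposite directions. The libraries share the split into TAC and unstressed hearts, so these values describe that split as well as any variation within groups.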

How the data were processed

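The values deposited by the authors were raw counts of reads for each gene symbol, 1 file a library. Per the submitters' processing notes, the build was mm10 and the tools were TopHat, TopHat2 2.0.10, Bowtie2, HTSeq, DESeq and edgeR, with no role for each. The sources used here give neither the counting parameters nor its annotation. Libraries were single-end and not strand-specific per the labels' protocols, so reads of genes that overlap on opposite strands cannot be told apart (at most 5.58% of a member's exonic bases, Pfkp). Reads on more than 1 gene (0.776% to 0.942%) and reads aligned to more than 1 place (8.01% to 14.2%) stayed out of totals. The deposited series table held the same counts for all 10 members.

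From these counts, edgeR 4.0.16 (limma 3.58.1, R 4.3.3) was run with TMM scaling, a filter on low counts by group (13765 genes), robust quasi-likelihood fits of 8 group means over all 29 libraries (21 residual degrees of freedom) and Benjamini-Hochberg adjustment within each of 14 comparisons. SE was the log2 fold change over the root of F. Every replicate pair differed by more than sampling noise (chi-square over its degrees of freedom at least 1.58). Gene positions and promoters came from RefSeq, and lengths and exon overlaps from GENCODE vM21. On simulated counts for the wild-type TAC comparison (13596 genes, 200 changed), recovery was 77.6% for genes changed 1.5-fold, 95.5% for 2-fold and 100% for 4-fold, and 11 of 193 calls were false. Of the changed genes, 92.5% had their true change within 2 SE. The changed genes all averaged above 1 CPM, and spread followed only the trend with level. In the data 35.7% of genes were called for that comparison, so these rates need not hold there.

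The members and pathway lists were chosen with earlier results of these data known. Named were all 10 members, Prkce and Prkcd, up to 3 genes per list with the smallest adjusted p for the mean TAC effect, and the 2 genes most like each member. One gene that this rule names is not reported here. Alternatives were RLE scaling, no filter, the sex label as a term, libraries labelled male, a replicate block, DESeq2 1.42.0, only the groups compared, other pseudocounts, leaving out the 2 Prkce-discordant libraries or each library in turn, and, chosen after seeing the data, combined unstressed replicate 1 left out with those 2. Same-numbered TAC and unstressed libraries did not deviate together, so replicate numbers were not used as pairs. Figures used matplotlib 3.10.9 in Python 3.11.15.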

Additional observations from a re-analysis of the deposited data

Results flagged for a closer look

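In unstressed combined hearts the Pfkfb2 to Pfkfb1 log2 ratio of replicate 1 was 6.31, far above the other 3 libraries of that group. Its Pfkfb1 level was 1.32 CPM, against 8.57 to 13.4 CPM in the others. In wild-type TAC hearts the Ldhb to Ldha log2 ratio of replicate 3 was 1.05, the lowest of its group and far from the other 3. These were 2 flags among 75 groups of 4 libraries tested, and chance flags about 1 in 20 groups.

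The TAC effect on Slc2a4 differed between PKCδ-ablation and wild-type hearts by 0.40 on the log2 scale (interaction, edgeR adjusted p = 0.0487). That on Ldhb differed between combined and wild-type hearts by -0.31 (interaction, edgeR adjusted p = 0.0265). Both differences lay mostly in the unstressed level, and their dependence on single libraries is given with each result.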

How the results depend on the processing

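No called member result reversed. Of 33 called results among 140, 8 were lost in at least 1 of up to 9 other settings and 9 in at least 1 fit without 1 library, whose values stand beside those results. Among the others, 11 results that were not called changed sign in some setting, and 21 became called. The number of members called for the PKCδ interaction was 1, and became 0 with no filter, the sex term, libraries labelled male or the replicate block, 2 without the discordant libraries and combined unstressed replicate 1, and 4 with only the groups compared. For combined against wild type after TAC it was 1, and became 0 with the sex term, libraries labelled male or only the groups compared, 3 with DESeq2, 2 without the discordant libraries and 4 without combined unstressed replicate 1 as well. For the combined interaction it was 1, and became 0 in libraries labelled male or with only the groups compared and 2 without the discordant libraries. For PKCε against wild type unstressed it was 0, and became 1 in libraries labelled male or with the replicate block and 2 with only the groups compared. For PKCδ against wild type unstressed it was 1, and became 2 without the 3 libraries and 4 with only the groups compared, and for TAC in PKCδ-ablation hearts it was 0 and became 2 there. The Hk2 to Hk1 ratio was -0.17 (adjusted p = 0.101) in libraries labelled male. The cause of these changes was not tested.

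Without 1 library in turn, members called ranged from 4 to 7 for TAC in combined hearts, 5 to 7 in PKCε-knockout, 0 to 1 in PKCδ-ablation and 5 to 6 in wild-type hearts, and 7 to 8 in their mean. Against wild type they ranged from 3 to 5 (combined), 0 to 1 (PKCε) and 0 to 1 (PKCδ) unstressed and from 0 to 4 (combined) and 0 to 0 (PKCε and PKCδ) after TAC. For the interactions they ranged from 0 to 2 (combined), 0 to 0 (PKCε) and 0 to 1 (PKCδ). The Hk2 to Hk1 ratio ranged from -0.2392 to -0.1696. Over all genes, 930 were called in combined against wild-type TAC hearts, but 122 with the sex term, 1 in libraries labelled male and 2 with only the groups compared. For TAC, 6027 in combined and 3696 in PKCδ-ablation hearts became 2840 and 1600 in libraries labelled male. For PKCε against wild type after TAC the main count of 6 became 46 (labelled male), 60 (DESeq2), 24 and 25 (discordant libraries out, and combined unstressed replicate 1 too) and 2 (groups compared). The interaction counts were 175 for PKCδ (85 labelled male, 307 DESeq2, 515 groups compared), 5 for PKCε (10 replicate block, 52 DESeq2, 8 with libraries out) and 3461 for combined (910 labelled male, 2160 with 3 libraries out). Same-numbered libraries gave deviation correlations of -0.108 to 0.181, and with the replicate block the Slc2a4 interaction for PKCδ had an adjusted p of 0.062. Depth limits Pfkfb1 most, at 16 reads in its lowest library.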
